A study of Mus musculus with 2 samples.

Results

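Neuropeptide processing and granule genes were examined in mouse AgRP neurons, hypothalamic cells that release agouti-related peptide and neuropeptide Y. The 10 genes were chosen by name (Pcsk1, Pcsk2, Pcsk1n, Cpe, Pam, Scg2, Scg3, Scg5, Chga and Chgb) out of 22296 gene symbols that the platform annotation gives to probe sets with a single symbol. The study collected AgRP neurons by FACS and compared FoxO1 KO cells with FoxO1 heterozygous KO cells, so the control cells carry a FoxO1 lesion too. There was 1 exon-level array per genotype, from littermates of mixed background matched for age and sex, and with no replicate no test could be made. The sources used here do not give the ages, the driver and allele of the deletion, the number of mice behind an array or any pooling.

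Neuropeptides are made as long precursors that are packed into dense-core granules. There, prohormone convertases cut at paired basic residues, carboxypeptidase E removes the exposed basic residues, and peptidylglycine alpha-amidating monooxygenase turns a terminal glycine into an amide. Neuropeptide Y passes through all of these steps, and agouti-related peptide is cut by a convertase. Granins (chromogranins and secretogranins) are the acidic proteins that help to form the granule core and are themselves cut to peptides. In pro-opiomelanocortin neurons, which sit beside AgRP neurons, Cpe has been described as a gene under FoxO1 control, so the set bears on whether the same machinery differs here.

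Because FoxO1 binds DNA, promoters of the members were searched first for its core element, GTAAACA, and for the cyclic AMP response element, TGACGTCA, a palindrome known from granin and convertase promoters. Both strands of windows of 300 bases around RefSeq starts (GRCm38.p6) were read for the 9 of 10 members in the promoter table; Cpe was not among them. The FoxO element stood in 1 member, Pcsk1, and in 3.65% of all 32851 promoters in the table. The cyclic AMP response element in these exact letters stood in 3 members, Pcsk1, Scg2 and Chgb, and in 1.79% of all promoters. Variants of it were not searched for, so these counts leave them out. The 100 bases before the Chga start, for example, hold TGACGTAA. The 100 bases before the start of these 3 genes are shown because they hold every match found, with the matched letters in capitals (5′ to 3′ on the gene's strand).
Pcsk1 (chr13:75089757-75089856, + strand): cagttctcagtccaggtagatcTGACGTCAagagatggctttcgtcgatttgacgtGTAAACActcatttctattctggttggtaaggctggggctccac
Scg2 (chr1:79440027-79440126, - strand): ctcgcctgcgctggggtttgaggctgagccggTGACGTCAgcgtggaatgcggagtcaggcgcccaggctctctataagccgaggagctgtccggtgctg
Chgb (chr2:132781542-132781641, + strand): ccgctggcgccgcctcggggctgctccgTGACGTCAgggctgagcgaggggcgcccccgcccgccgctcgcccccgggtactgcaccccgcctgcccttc

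The cyclic AMP response element began 78 bases before the start in Pcsk1, 68 in Scg2 and 72 in Chgb, so it lay at a like distance in all 3. In Pcsk1 the FoxO element followed at 44 bases before the start, on the same strand as the gene and without overlap with the TGACGTCA match. The letters TGACGT, a part of that element, stood again directly before the FoxO element. A match describes these letters only, and occupancy by either factor was not measured. The array differences of these 3 genes lay on both sides of 0: Pcsk1 stood at 0.16, Scg2 at -0.19 and Chgb at -0.24 (log2, KO minus heterozygous KO, as defined next).

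Values are on the deposited scale, taken to be log2, where a step of 1 is a 2-fold change. Each probe set reports on a short stretch of a transcript. A gene's difference is the median, over its probe sets, of the KO value minus the heterozygous KO value, and its level on an array is the median of the same probe sets there. Probe sets entered when their 2 values averaged at least 5.86, a floor set at the median of all probe sets. The SD given with a difference is over probe sets of 1 pair of arrays, so it measures their disagreement and not the spread between mice. Of 148 probe sets of the members, 134 reached the floor, and all 10 members had at least the 3 required. The 14 under the floor belonged to Pam (7), Scg2 (2), Scg3 (2), Pcsk2, Scg5 and Chgb.

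All 10 members lay close to 0, between -0.29 for Pcsk1n and 0.17 for Scg3. Of these, 8 were lower and 2 higher on the KO array, where 65.2% of all 16639 evaluated genes were lower and 34.8% higher, so the balance of directions was near the background. Centring on the median of all genes adds 0.11 to every gene and gave 7 members lower and 3 higher, with Pam moved above 0, where by construction as many evaluated genes lie above 0 as below. No member was at least 2-fold higher or lower with at least 75% of its probe sets on that side, a rule that 1.13% and 1.12% of evaluated genes met. Nor did a member meet a looser rule, a difference of at least 0.32 in size (25% above the lower array) with the same agreement, which 6.30% of evaluated genes met as higher and 13.7% as lower. After centring those shares were 10.1% and 7.20%, so their balance turns with the scaling, and still no member met the rule. The median over members was -0.18 against -0.11 over all evaluated genes, and 7 of 10 members lay between the quartiles of all genes (-0.29 and 0.09). The size of the difference was under the SD over probe sets for all 10, as it was for 89.7% of evaluated genes.

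**Figure D1:**
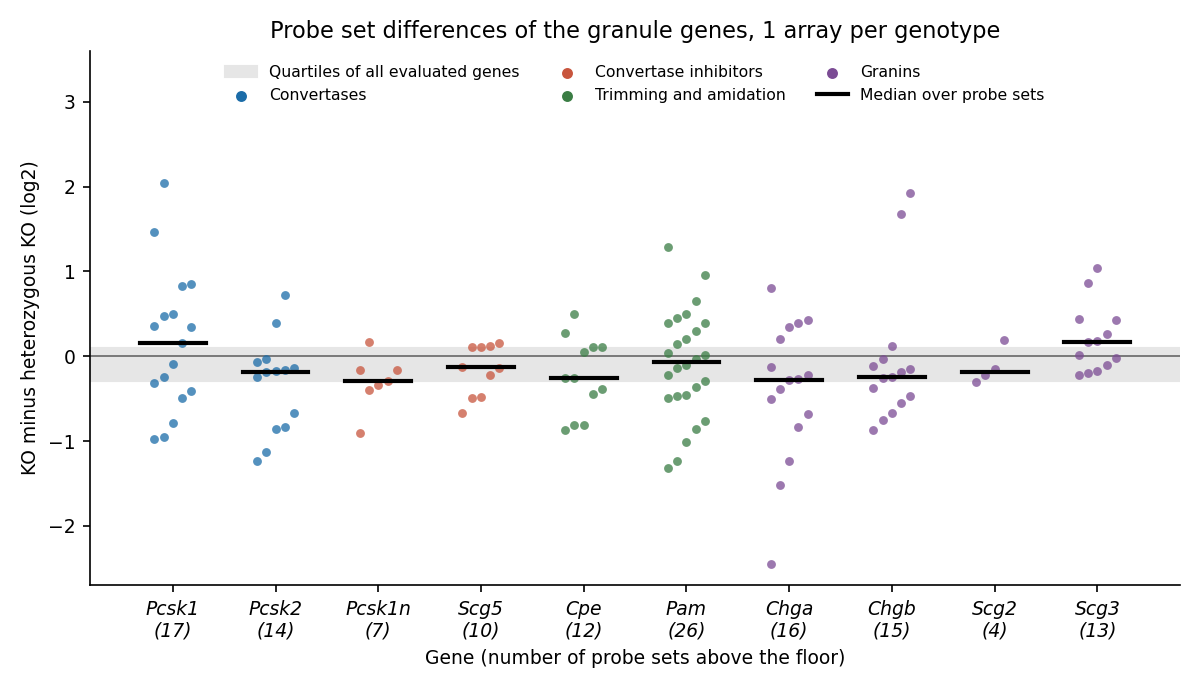
Difference between the KO array and the heterozygous KO array (log2, vertical axis) for each probe set above the floor, by gene and coloured by role, with the median as a black bar; the grey band spans the quartiles of all evaluated genes (-0.29 to 0.09). The medians run from -0.29 to 0.17, while single probe sets run from -2.45 in Chga to 2.04 in Pcsk1.

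The medians of the convertases lay on opposite sides of 0. Pcsk1, which makes the first cuts in many precursors, had a level of 9.07 in KO cells and 9.45 in heterozygous cells, yet differed by 0.16 (SD 0.83, 17 probe sets). The gap between the levels and the difference thus had opposite signs, since the medians are taken separately. Its probe sets were divided, with 9 higher and 8 lower, and they spread the most among the members. The highest stood at 9.58 against 7.54, a difference of 2.04, and the lowest at 8.72 against 9.69, a difference of -0.97. No direction can be read for Pcsk1 from probe sets so evenly divided.

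Pcsk2, which makes later cuts, had levels of 8.11 in KO and 8.19 in heterozygous cells, with a difference of -0.18 (SD 0.56, 14 probe sets). In contrast to Pcsk1, 12 of its 14 probe sets were lower. The lowest were at -1.24 (6.34 against 7.58) and -1.13 (6.82 against 7.96), and the highest was at 0.72 (8.74 against 8.02). With the mean over probe sets in place of the median, Pcsk2 stood at -0.33 and met the looser rule, the 1 member to do so under any alternative run. Whether the 2 convertases differ from each other was not tested, as 1 array per genotype allows no test.

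The genes for convertase inhibitors passed neither rule. Pcsk1n encodes proSAAS, a granule protein that inhibits the product of Pcsk1, and had the lowest difference of the 10, at -0.29 (SD 0.33 over 7 probe sets), with levels of 9.47 and 9.76. Of its 7 probe sets 6 were lower, from -0.16 to -0.91, and 1 was at 0.17. The probe set at -0.91 stood at 5.97 against 6.87. Scg5 encodes a chaperone of the Pcsk2 product that also inhibits it, and stood at 10.81 and 10.89, with its difference at -0.13 (SD 0.30, 10 probe sets). Its probe sets ran from -0.67 to 0.15, with 6 lower and 4 higher, so the gene lay at about the median of all genes (-0.11) and at -0.02 after centring. Neither gene had a probe set that differed by 2-fold.

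Cpe, the carboxypeptidase of the granule, stood at 10.76 in KO cells against 11.01 in heterozygous cells, with a difference of -0.26 (SD 0.45, 12 probe sets). Its probe sets were 7 lower and 5 higher. The lowest stood at -0.87 (6.81 against 7.68) and the highest at 0.50 (10.60 against 10.10). No probe set of Cpe was at least 2-fold higher or lower. Under the 9 alternative settings, which summarise the same 2 arrays again, the difference ran from -0.28 to -0.15. Every member but Pam kept its sign under such settings, so this does not set Cpe apart.

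Pam, the amidating enzyme, was the member nearest to 0, at -0.07 (SD 0.64 over 26 probe sets). Its levels, 8.91 and 9.49, lay further apart than that difference. Of its 26 probe sets 14 were lower and 12 higher, and 4 differed by at least 2-fold. The lowest of these was at -1.32 (8.99 against 10.31), followed by -1.24 (8.31 against 9.55) and -1.01 (8.42 against 9.43), and the highest was at 1.28 (6.71 against 5.43). These few probe sets lay on both sides of 0, and 18 of the 26 lay within 0.5 of it. Which exons they report on is not known here.

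**Figure D2:**
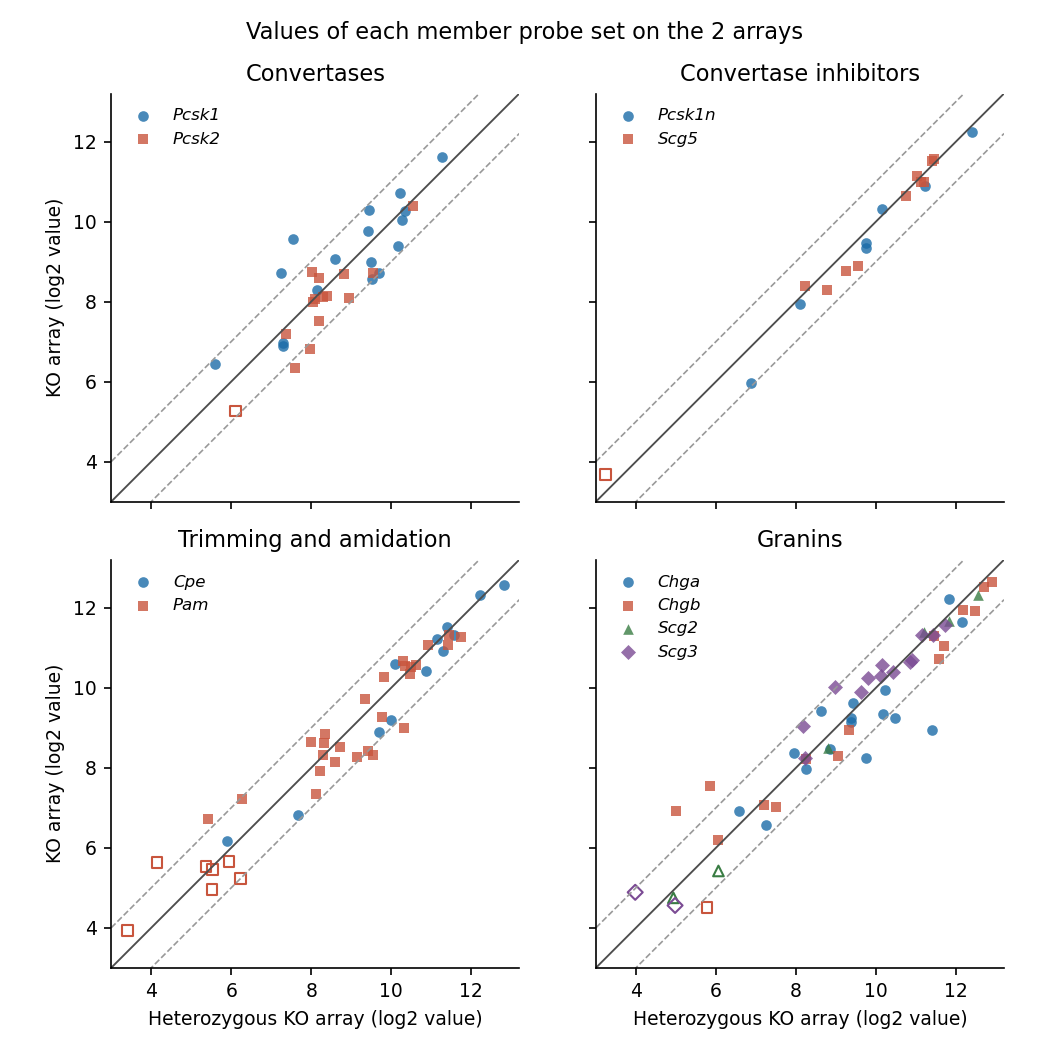
Log2 value of each member probe set on the heterozygous KO array (horizontal axis) and on the KO array (vertical axis), in 4 panels by role; filled symbols reached the floor of 5.86 in their mean, open symbols did not, the solid line marks equal values and dashed lines a 2-fold difference. Of the 134 filled points, 14 lie on or beyond the dashed lines.

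Of the granins, 3 of the 4 were lower, beside 65.2% of all evaluated genes. Chga, encoding chromogranin A, stood at 9.20 in KO cells against 9.39 in heterozygous cells, a difference of -0.28 (SD 0.83, 16 probe sets), with 11 probe sets lower and 5 higher. It held the lowest probe set of all members, at 8.94 against 11.39 (-2.45), and others at -1.51 (8.24 against 9.75) and -1.24 (9.25 against 10.48). Those were the 3 probe sets of Chga at least 2-fold apart, and the highest was at 0.81 (9.43 against 8.62).

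Chgb, encoding chromogranin B, had levels of 8.94 and 9.31 in the same order, with a difference of -0.24 (SD 0.81, 15 probe sets). Here 12 of 15 probe sets were lower, from -0.03 to -0.87. The 3 others were at 0.12, 1.68 (7.53 against 5.85) and 1.92 (6.91 against 5.00). Both of the large higher values came from probe sets under the floor on the heterozygous array. With the mean over probe sets, which those high values pull up, Chgb stood at -0.06.

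The secretogranins came next. Scg2, a granin cut to secretoneurin, had levels of 11.53 and 11.51, and the difference was -0.19 (SD 0.22, 4 probe sets). Its 4 probe sets were at -0.31, -0.22, -0.16 and 0.19, the smallest spread of the 10 genes on the fewest probe sets. Scg3, which binds chromogranin A and cholesterol of the granule membrane, was the highest member, at 10.39 against 10.14, or 0.17 as the difference (SD 0.40, 13 probe sets). Its probe sets were 8 higher and 5 lower; the highest was at 1.04 (10.02 against 8.97), and no lower one went below -0.22.

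Ordered by their differences the members ran Pcsk1n, Chga, Cpe, Chgb, Scg2, Pcsk2, Scg5, Pam, Pcsk1 and Scg3. Neighbours in this order lay well within their SDs over probe sets, so the order carries no ranking. Before centring, at least 75% of probe sets were lower in 4 members (Pcsk2, Pcsk1n, Scg2 and Chgb) and higher in none, against 23.3% and 9.56% of evaluated genes. Centring on the median gene moves Pcsk2 probe sets at -0.03 and -0.07 and a Chgb probe set at -0.03 above 0. Pcsk2 and Chgb then fall under 75%, while Pcsk1n and Scg2 do not. The matching shares of evaluated genes after centring are not given here, so no excess over them can be read. Over all 134 probe sets, 62.7% were lower before centring, against 57.4% of all probe sets with a single symbol above the floor. Probe sets at least 2-fold lower made up 5.97% of the members' and 11.0% of all such probe sets, and those at least 2-fold higher 4.48% and 9.24%.

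Large differences sat mostly among the dimmer probe sets of the members. Divided at their median value of 9.52, 11 of the 67 dimmer ones and 3 of the 67 brighter ones differed by at least 2-fold, with a median size of difference of 0.49 and 0.25. Over all probe sets with a single symbol the same division gave 21.8% and 11.6% at 2-fold, with median sizes of 0.46 and 0.36. The SD over probe sets was under the median of all genes, 0.68, in 7 of the 10 members.

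Values of the 2 arrays gave r = 0.920 over 1235936 probe sets (across probe sets, which are not replicates). This r also reflects how far probe sets differ in level, so it does not measure how alike the arrays are. Of probe sets with a single symbol above the floor, 11.0% were at least 2-fold lower and 9.24% at least 2-fold higher. Foxo1, the targeted gene, was at 7.46 in KO cells against 7.98 in heterozygous cells, a difference of -0.48 with 8 of 8 probe sets lower. Their place relative to the deletion is unknown here, so this does not check the genotype. The label of the cells fitted the peptides they are named for: Agrp stood at 12.44 and 11.97 and Npy at 12.19 and 12.31, and all 12 listed AgRP neuron markers were evaluated, 7 above 0 and 5 below, with a median difference of 0.10. Lepr (0.41), Mc3r (0.52) and Acvr1c (0.34) met the looser rule as higher, and Ghsr (-0.60) and Slc32a1 (-0.40) as lower. Of all evaluated genes 6.30% met it as higher and 13.7% as lower. Markers of some other cells differed between the arrays. The marker genes given here beyond Foxo1, Gpr17, Agrp and Npy were named after their values were seen. The counts of lower markers that follow stand beside 65.2% of all evaluated genes that were lower. The 2-fold rule was met as lower by 1.12% of evaluated genes. All 9 evaluated mature oligodendrocyte markers were lower (median -1.11, KO levels of 6.63 to 8.68, heterozygous levels of 7.16 to 9.52), as were all 8 precursor markers (median -1.05), among them Gpr17 at -2.10, although Sox10 at -0.09 lies above 0 after centring. Of 8 evaluated markers of other hypothalamic neurons, which also hold dense-core granules, 7 were lower (Ghrh, at -0.11, was at about 0 after centring), and Slc17a6, a glutamate transporter gene, and Oxt, the oxytocin gene, passed the 2-fold rule. Slc17a6 stood at 5.40 in KO cells, under the floor, against 9.11 in heterozygous cells, so the size of its difference is uncertain, and Oxt was at -1.01 (SD 2.57). Astrocyte (median -0.16 over 8 genes, 3 higher) and microglia markers (-0.12 over 5 genes, 2 higher) had no gene past either rule. The vessel markers had a median of -0.18 over 5 genes, all lower (Pecam1 and Flt1 not after centring), with 1 past the looser rule (Cdh5, at -0.77). Markers of pro-opiomelanocortin neurons had a median of 0.29 over 4 genes, 3 of them higher and 1 past the looser rule (Cartpt, at 0.33). Pomc itself was at 0.28, but its levels were 6.87 on both arrays. Tbx3 was at 0.30, and Prdm12 was about 0, with levels of 6.53 and 6.57. The pituitary list, a source of granins outside the brain, had 4 evaluated genes with a median of -0.17. The part of these cells in the members' values was not tested. On such arrays fewer cells of a type and less RNA per cell cannot be told apart.

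The rest of the pathway was described from 5 lists with 75 genes, of which 71 were evaluated. Of these 71, 52 were lower, beside 65.2% of all evaluated genes, and their median was -0.15. At 2-fold with agreeing probe sets 1 was higher and none lower, beside 1.13% and 1.12% of evaluated genes. By the looser rule 3 were higher and 10 lower, beside 6.30% and 13.7%. After centring, 37 of the 71 were lower, and the looser rule took 4 as higher and 5 as lower, beside 10.1% and 7.20%.

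Other processing enzymes had a median of -0.05 over 16 genes and none past the 2-fold rule. The highest was Ctsb, a lysosomal protease, at 0.37 (9.58 against 10.08 as levels, so again with opposite signs), and the lowest was Pcsk7, a convertase of the secretory route, at -0.55 (6.99 against 7.54, 14 of 17 probe sets lower). Furin, the convertase of the Golgi, was at -0.15 and Cpd, a carboxypeptidase of the Golgi, at 0.31. Peptide-degrading enzymes had a median of -0.15 over 14 genes, from Prep at -0.48 (7.33 against 8.02) to Prcp, which cuts a terminal residue from peptides such as alpha-melanocyte-stimulating hormone, at 0.94 (7.63 against 6.71, 9 of 13 probe sets higher). Furin and Cpd were named after their values were seen.

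Other granule cargo and membrane proteins had a median of -0.21 over 12 genes, close to that of the members. Cyb561, an electron carrier of the granule membrane that regenerates the ascorbate used by the amidating enzyme, was the 1 gene of the 5 lists past the 2-fold rule. It stood at 8.49 in KO cells against 7.30 in heterozygous cells, or 1.05 as the difference (SD 1.49, 6 of 8 probe sets higher). With no floor it was at 0.67 over 9 probe sets and did not pass. Resp18, a granule protein of endocrine cells and neurons, was higher in 9 of 9 probe sets, at 11.79 against 11.32 (difference 0.47, SD 0.15), and was named after its value was seen. Vgf, a granin-like precursor, was at -0.24, and the granule membrane proteins Ptprn and Ptprn2 were at -0.29 and -0.30; these 3 were also named after their values were seen.

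Genes of granule biogenesis, transport and release had a median of -0.07 over 23 genes and none past the 2-fold rule. They ran from Sytl4, a Rab effector of granules, at -0.64 (6.62 against 7.49, 12 of 12 probe sets lower) to Syt10, a synaptotagmin, at 0.51 (7.54 against 7.30, 5 of 8 higher). The 6 evaluated transcription factors of the neuroendocrine programme were all lower, Insm1 not after centring, beside 65.2% of all evaluated genes. Their median was -0.21. They ran from Foxo1 at -0.48 to Insm1, a zinc finger factor of endocrine cells, at -0.07 (7.67 against 7.68). Creb1, whose product binds the cyclic AMP response element, was at -0.27 (8.17 against 8.89, 12 of 17 probe sets lower) and was named after its value was seen.

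**Figure D3:**
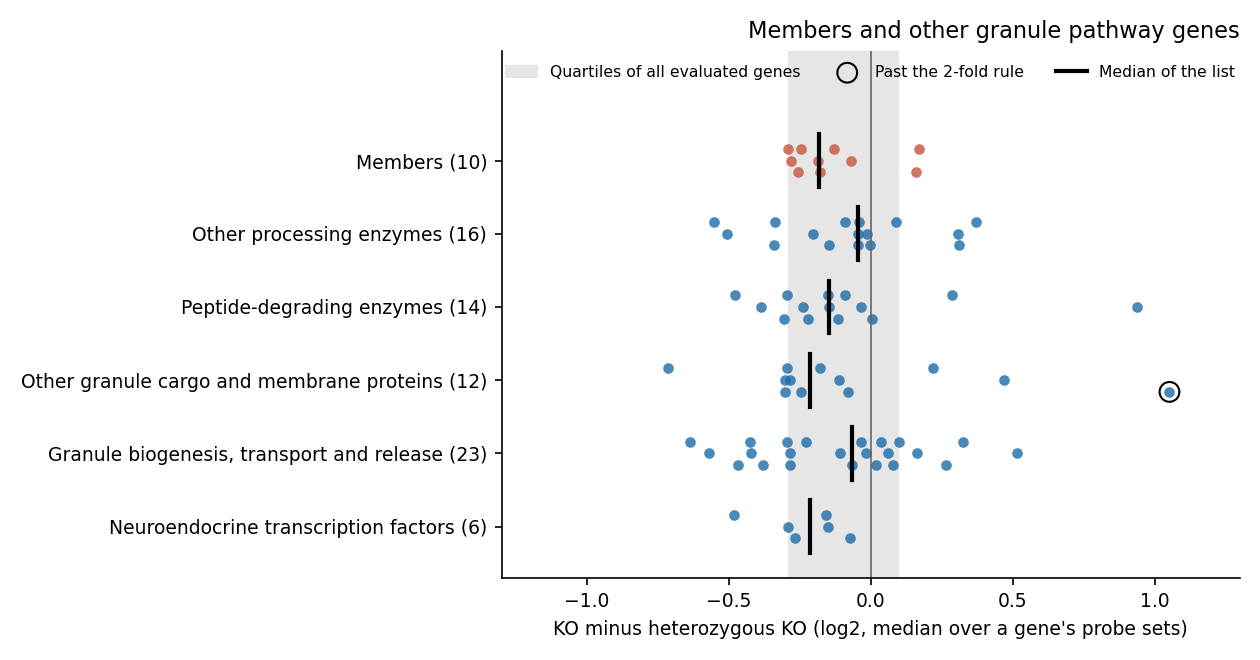
Difference between the KO array and the heterozygous KO array (log2, horizontal axis) of each evaluated gene, by list, with the number of genes in brackets; black bars are list medians, the grey band spans the quartiles of all evaluated genes, and a circle marks a gene past the 2-fold rule. The 10 members lie between -0.29 and 0.17, and Cyb561 at 1.05 is the circled gene.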

How the data were processed

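The 2 samples were measured, 1 array each, and grouped by the genotype in their labels. The authors deposited 1 value per probe set and array; per the submitters' processing notes these log2 values were made by the authors with RMA, which as usually run corrects background, equalises arrays and summarises probes, and Partek, with no version. The log2 scale is not stated and was taken from the values, which ran from 2.53 to 14.13 with medians of 5.85 on both arrays. Equalising arrays hides a change in total RNA. No build or annotation release of the values is named in the labels.

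Of 1235936 probe sets, 318760 had 1 symbol, 6684 several and 910492 none in the platform annotation. A gene needed 3 probe sets above the floor. Members and lists were chosen with earlier results of these data known. Named are all members, Foxo1, Gpr17, Agrp and Npy, and from each pathway list the genes past the 2-fold rule or else the highest and the lowest; other names are marked as chosen later. Older symbols stand for Hid1, Ccdc186 and Eipr1. Proteins were not used here. The gene summary was checked on simulated data, where a change was added alike to all probe sets of a gene. The changes were larger than the difference of any member, so the check does not cover differences as small as theirs. The number of arrays limits the precision. Alternatives were the floor, mean over probe sets, minimum number of probe sets, centring, removal of the trend on level, repeated quantile normalisation, several symbols, agreement and fold. For the median over members, the mean over members and leaving out 1 member at a time were added. Python 3.11.15, numpy 2.4.6, pandas 2.3.3, statsmodels 0.14.6 and matplotlib 3.10.9 were used.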

Additional observations from a re-analysis of the deposited data

How the results depend on the processing

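With 1 array per genotype no replicate could be left out, and the alternatives vary the summary only. No paired analysis was possible because there is 1 array per genotype. No member met the 2-fold rule under any of them, including 1.5-fold in its place. The count of members lower by the looser rule moved from 0 to 1 (Pcsk2) with the mean over probe sets. The median over members ran from -0.20 to -0.07 over 20 alternatives. Many of these only left out 1 member at a time, which can hardly move a median, and gave -0.19 to -0.18. Centring on the median gene adds 0.11 to every gene; it moved Pam to 0.04, and no other member changed sign under the 9 alternatives (8 for Scg2, which has under 5 probe sets above the floor). Of the lists, genes past the 2-fold rule went from 1 to 0 among other granule cargo and membrane proteins with no floor (Cyb561), from 0 to 1 among genes of granule biogenesis, transport and release with the floor at the 75th percentile (Syt10, at 2.27 over 5 probe sets), and from 0 to 1 among peptide-degrading enzymes with the mean over probe sets (Mme, at -1.53). Mme was named after its value was seen. Centring also took the medians of other processing enzymes to 0.06 and of the biogenesis list to 0.04. A no-floor summary includes probe sets at the dim end, where signal over background limits what can be seen.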

Other observations

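Peptide precursors that these enzymes process, all but Agrp and Npy named after their values were seen, lay on both sides of 0. Agrp was at 0.27 (SD 0.29), with 6 of 7 probe sets higher. Cartpt, the precursor of cocaine- and amphetamine-regulated transcript peptides, was higher in 5 of 5 probe sets, at 9.67 in KO cells against 8.97 in heterozygous cells (difference 0.33, SD 0.26), and met the looser rule, as 6.30% of evaluated genes did. Sst, the somatostatin precursor, was at 0.27 with 2 of 3 probe sets higher. Pomc, the precursor of melanocortins, was at 0.28 with levels of 6.87 on both arrays. Npy had opposite signs in its levels (12.19 against 12.31) and its difference (0.14), as Pcsk1 and Scg2 did. Avp, the vasopressin precursor, was lower in 4 of 5 probe sets, at 7.69 against 8.49 (difference -0.57, SD 0.65), and met the looser rule as lower, as 13.7% of evaluated genes did. Oxt was lower in 5 of 5 and passed the 2-fold rule as lower, as 1.12% did, at 7.40 against 9.84 (difference -1.01, SD 2.57). Trh, the thyrotropin-releasing hormone precursor, was at -0.23 with 3 of 5 probe sets lower. With 1 array per genotype none of these differences was tested.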
